A study of Homo sapiens with 47 samples.

Results

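The 10 genes COIL, WRAP53, SMN1, SMN2, GEMIN2, GEMIN4, GEMIN5, GEMIN6, GEMIN7 and GEMIN8 encode coilin, a Cajal body scaffold protein, WRAP53, and the core of the SMN complex. They were taken by symbol from a table of 58395 genes, and all 10 were among the 28025 genes that passed edgeR's filter on low counts. Sequencing of total RNA depleted of ribosomal RNA (RNA-seq) compared wild-type HEK293T cells, which derive from human embryonic kidney, with EAF1-mutant HEK293T cells, at 3 libraries per genotype. Per the study's methods, the mutant line carries alanines in place of 4 neighboring amino acids of EAF1 on both alleles, was made by CRISPR knock-in and is 1 selected clone. What is particular to that clone and what follows from the mutation therefore cannot be told apart. The study's methods speak of biological replicates for its experiments in general, while the labels do not say whether the 3 libraries of a group came from separate cultures. The p-values measure only the spread between these libraries of 1 line each.

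Cajal bodies are nuclear bodies in which small nuclear RNAs and small Cajal body RNAs gather, and where spliceosomal small nuclear ribonucleoproteins (snRNPs) pass through late steps of their maturation. After transcription, most spliceosomal snRNAs are exported to the cytoplasm, where the SMN complex places a ring of Sm proteins on them before they return to the nucleus. SMN and the Gemin proteins form that complex, and loss of SMN1 causes spinal muscular atrophy. EAF1 is a partner of ELL and, with it, part of the little elongation complex, which acts in the transcription of snRNA genes by RNA polymerase II.

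Sequencing gave 59137210, 52541541 and 55637032 counts for wild-type cells, and for EAF1-mutant cells it gave 57198018, 53369621 and 66611451. Values per library are CPM, that is, counts brought to a common library total after edgeR's TMM adjustment. EAF1 itself had 57.5, 58.4 and 56.5 CPM in the wild-type libraries and 19.7, 17.9 and 18.8 CPM in the EAF1-mutant libraries. A point mutation leaves this RNA countable, so its level does not check the labels. Its log2 fold change was -1.61 (standard error 0.05, edgeR adjusted p = 2.48e-18), on an arm (3p) whose tested genes had a median of -0.78 and among 10 neighbors with a median of -0.92. Of 10 genes that HEK293T cells are known for, 9 had over 5 CPM in all 6 libraries, and PAX2 had between 0.574 and 1.08 CPM. These 10 genes summed to 709, 719 and 737 CPM in the wild-type libraries and to 533, 528 and 539.6 CPM in the EAF1-mutant ones, with VIM, the most abundant of them, at 380.5 and 199 CPM on average. The list did not move as 1 block, as KRT8 averaged 22.9 CPM against 59.4 CPM in the EAF1-mutant line, and KRT18 34.4 against 60.5 CPM. Among 11 marker genes of blood cells, hepatocytes, fibroblasts and squamous epithelium, 9 were under 1 CPM in all 6 libraries. The most abundant of the 11 was COL1A1, at 2.85 and 4.16 CPM on average in wild-type and EAF1-mutant cells.

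In EAF1-mutant cells the RNA of 3 SMN complex genes, GEMIN2, GEMIN5 and GEMIN8, was lower than in wild-type cells, and none of the 10 genes was higher. GEMIN2 dropped to 50.3% of its wild-type mean, GEMIN5 to 63.1% and GEMIN8 to 67.3%. COIL was at 103% of its wild-type mean, SMN1 at 87.8% and SMN2 at 89.7%. In such bulk samples, fewer cells that express a gene and less of its RNA per cell cannot be told apart. The threshold, taken from the study's methods, asked for an adjusted p under 0.01 in edgeR's quasi-likelihood test over all 28025 genes, together with a log2 difference of more than 0.5 in either direction. Over all genes, 2624 (9.36%) were lower and 3071 (11%) were higher past it, and DESeq2 also called 3 of the 10 genes lower and none higher. With scaling by library totals alone, 1840 genes were lower and 4169 higher, and the median over all tested genes moved from 0.01 to 0.13 on the log2 scale.
The smaller differences also pointed mostly one way. At an adjusted p under 0.05 with no limit on the fold change, 8 of the 10 were lower and none higher in edgeR, against 25.6% lower and 25.9% higher among all tested genes. At an unadjusted p under 0.05 in edgeR, 9 were lower and 0 higher, against 27.8% and 28.5%. The median log2 fold change of the 10 genes was -0.17, against 0.01 for all tested genes and -0.05 for the 10142 protein-coding genes that averaged 10 CPM or more. Of those abundant genes, 11.9% were lower and 5.22% higher past the threshold, so their calls leaned to the lower side as well. These small differences depended on the scaling, since with library totals alone the median of the 10 genes was -0.06, 4 of them were lower and 1, COIL, was higher at the same limit. The 3 EAF1-mutant libraries lay wholly below the 3 wild-type libraries for 8 of the 10 genes. Groups that did not overlap were also found for 57.3% of all tested genes, a share that holds lower and higher genes together.

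**Figure D1:**
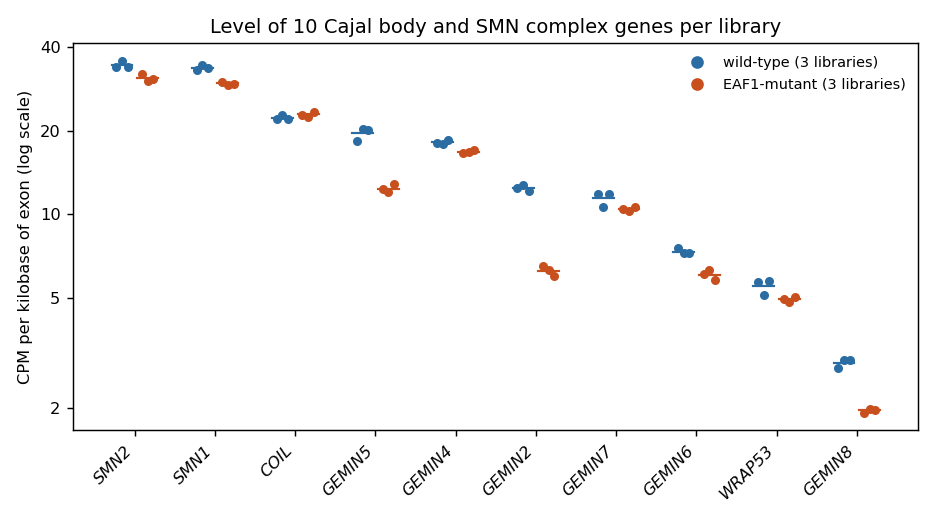
Level of the 10 genes in each library, in CPM per kilobase of annotated exon on a log axis, with genes ordered by their wild-type mean (short lines are group means of 3 libraries). The points of the EAF1-mutant libraries sit well below the wild-type points for GEMIN2, GEMIN5 and GEMIN8, while those of COIL and GEMIN7 overlap.

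Coilin is the protein by which Cajal bodies are recognized under the microscope, and it binds SMN and other residents of the body. COIL (ENSG00000121058, chromosome 17, 56938199 to 56961050 in GRCh38) had 66.5, 68.6 and 66.7 CPM in the wild-type libraries and 68.8, 67.8 and 70.7 CPM in the EAF1-mutant libraries. The groups overlapped, and the log2 fold change was 0.04 (standard error 0.04, edgeR adjusted p = 0.407). WRAP53, also called TCAB1, brings small Cajal body RNAs and telomerase RNA to the body. WRAP53 (ENSG00000141499, chromosome 17, 7686071 to 7703502) had 34.3, 30.7 and 34.5 CPM in wild-type cells and 29.8, 29.1 and 30.1 CPM in EAF1-mutant cells. All 3 EAF1-mutant values were below the lowest wild-type value, but by less than the spread of the wild-type libraries, and the log2 fold change of -0.16 did not reach the limit of 0.5 (edgeR adjusted p = 0.0071).
The library kit keeps the strand, but no source used here gives the strand setting of the counting, so the values of genes that overlap others, WRAP53 among them, are uncertain.

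SMN is the protein that the complex is built around. It is encoded by SMN1 (ENSG00000172062, chromosome 5, 70925030 to 70953942) and by its near-identical copy SMN2 (ENSG00000205571, chromosome 5, 70049638 to 70078522), whose transcripts often lack an exon. Of 100-base windows within annotated SMN1 exons, 79.1% also occur in the span of the SMN2 gene, introns included. Reads from those windows match both copies. Windows across exon junctions were not counted. SMN1 was listed at 5813, 5409 and 5567 counts in the wild-type libraries and at 5554, 5047 and 6323 in the EAF1-mutant libraries. SMN2 was listed at 5707, 5368 and 5422 counts in wild-type cells and at 5679, 4992 and 6312 in EAF1-mutant cells. In each library the copies thus took nearly equal parts.
The sum of both genes was 204, 213 and 205 CPM in the wild-type libraries and 189, 181 and 183 CPM in the EAF1-mutant libraries. All 3 EAF1-mutant sums were below all wild-type sums. The log2 fold change of the sum was -0.17 (standard error 0.04, edgeR adjusted p = 3.12e-04), which did not reach the limit of 0.5, and it was -0.06 (edgeR adjusted p = 0.202) with library totals alone. Over all alternatives run for the sum, the adjusted p of edgeR or DESeq2 ran from 4.08e-06 to 0.202. Taken singly, SMN1 had a log2 fold change of -0.19 and SMN2 one of -0.16.
SMN1 held 50.5%, 50.2% and 50.7% of the summed counts in the wild-type libraries and 49.4%, 50.3% and 50% in the EAF1-mutant libraries. The groups overlapped, and the means differed by -0.52 percentage points (two-sided exact permutation test, p = 0.2; 3 against 3 libraries cannot go below 0.1). Without the lowest library, EAF1-mutant replicate 1, the difference was -0.28 percentage points.
SERF1A and SERF1B, which lie next to the SMN genes in the same duplicated segment, are copies that are more alike by this measure. Each shares 95.8% of its 100-base exon windows with the span of the other, against the 79.1% of SMN1 and 77.9% of SMN2. The SERF1 counts differed by 1 to 18 in a library, while reads assigned to either copy at random would differ with an SD of 55.2 to 64.3 counts. SMN1 and SMN2 differed by 11 to 145 counts, against an SD of 100.2 to 112 by the same calculation. No source used here says whether reads that map to both copies were counted for each of them, so the sum of SMN1 and SMN2 may hold reads more than once.

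**Figure D2:**
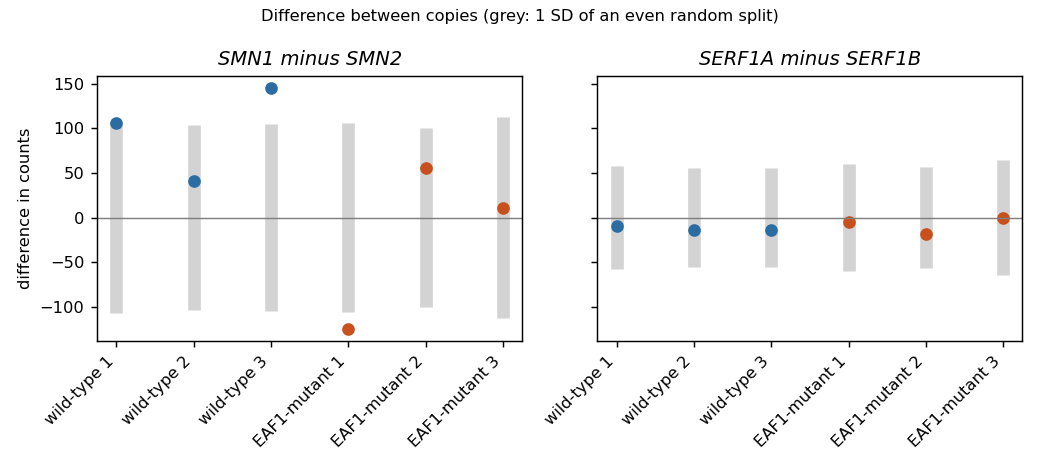
Difference in counts between the copies SMN1 and SMN2 (left) and SERF1A and SERF1B (right) in each of the 6 libraries (points; blue, wild-type; orange, EAF1-mutant), with grey bars of 1 SD to either side of 0 for reads assigned to either copy at random. The SERF1 differences, from 1 to 18 counts, stay deep inside the bars, while those of the SMN genes reach 145 counts.

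GEMIN2 binds SMN directly and holds Sm proteins as they are gathered for the ring. GEMIN2 (ENSG00000092208, chromosome 14, 39114285 to 39136973) had 33.4, 34.4 and 32.7 CPM in the wild-type libraries and 17.5, 17 and 16.1 CPM in the EAF1-mutant libraries. The groups lay far apart, with SDs of 0.851 and 0.705 CPM. The log2 fold change was -0.99 (standard error 0.05, edgeR adjusted p = 4.05e-14), the largest of the 10 genes in size.
GEMIN5 recognizes the snRNA that is to receive the ring, by its cap and by the sequence of its Sm site. GEMIN5 (ENSG00000082516, chromosome 5, 154887411 to 154938211) had 104, 115 and 114 CPM in wild-type cells and 69.6, 67.6 and 72.2 CPM in EAF1-mutant cells. The groups did not overlap, and the gap between them was larger than the spread of either. Its log2 fold change was -0.66 (standard error 0.04, edgeR adjusted p = 6.52e-12).
GEMIN8, GEMIN7 and GEMIN6 form a chain in the complex, in which GEMIN8 attaches to SMN and GEMIN6 and GEMIN7 pair through folds that resemble Sm proteins. GEMIN8 (ENSG00000046647, chromosome X, 14006726 to 14029893) had 11.2, 11.9 and 11.9 CPM in wild-type cells and 7.67, 7.95 and 7.86 CPM in EAF1-mutant cells. The groups did not overlap, and the log2 fold change was -0.57 (standard error 0.06, edgeR adjusted p = 7.53e-08). With library totals alone it was -0.46, short of the limit of 0.5, so GEMIN8 was past the threshold under TMM scaling but not under that alternative.
GEMIN6 (ENSG00000152147, chromosome 2, 38751534 to 38785002) had 33, 31.5 and 31.5 CPM in wild-type cells and 26.6, 27.4 and 25.2 CPM in EAF1-mutant cells. The groups did not overlap, yet the log2 fold change of -0.28 (edgeR adjusted p = 2.29e-05) was short of 0.5. GEMIN7 (ENSG00000142252, chromosome 19, 45079195 to 45091518) had 22.5, 20.2 and 22.6 CPM in wild-type cells and 20, 19.7 and 20.2 CPM in EAF1-mutant cells. Its groups overlapped, and its log2 fold change was -0.12 (edgeR adjusted p = 0.0515). The members of this chain therefore differed in size of change, although the differences between them were not tested.
The counts of GEMIN7 are uncertain too, as 74% of its exon bases lie in exons of the antisense gene GEMIN7-AS1. The antisense gene averaged 11.5 ± 1.41 CPM (SD, n = 3) in wild-type and 10.5 ± 0.441 CPM in mutant libraries, and its log2 fold change was -0.14. On its own strand GEMIN7 shares 4.71% and 5.4% of its exon bases with MARK4 and PPP1R37, whose log2 fold changes were 0.07 and 0.04. GEMIN4 (ENSG00000179409, chromosome 17, 744421 to 753999), which joins the complex through other Gemins, had 104, 103 and 107 CPM in wild-type cells and 95.3, 96.2 and 98 CPM in EAF1-mutant cells. The groups did not overlap, and the log2 fold change was -0.12 (edgeR adjusted p = 0.0105), which passed neither limit.
Of the other overlaps, GEMIN4 shares 2.75% of its exon bases with the pseudogene DBIL5P, which had 1.11 CPM in wild-type cells and a log2 fold change of 0.40. COIL shares 1.69% with a pseudogene (ENSG00000262623) at 0.728 CPM in wild-type cells. SMN1 and SMN2 have antisense genes within their introns (ENSG00000285204 and ENSG00000285151), at 2.58 and 2.61 CPM in wild-type cells, and so has COIL (ENSG00000262298), at 0.419 CPM. Among annotated genes with listed counts, none overlapped GEMIN2, GEMIN5 or GEMIN8.

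The 3 genes that passed the threshold were also looked at by the sequence before their start sites, with COIL, whose level was nearly the same in both groups, beside them. RefSeq promoters of GRCh38.p14 were at hand for 8 of the 10 genes, all but SMN1 and SMN2. The stretches below are on the strand of each gene, at chr14:39114073-39114284 for GEMIN2 (plus strand), chr5:154938212-154938461 for GEMIN5 (minus strand), chrX:14029894-14030142 for GEMIN8 (minus strand) and chr17:56961051-56961300 for COIL (minus strand). They end where an annotated exon begins, and capitals mark matches to the searched motifs.
GEMIN2: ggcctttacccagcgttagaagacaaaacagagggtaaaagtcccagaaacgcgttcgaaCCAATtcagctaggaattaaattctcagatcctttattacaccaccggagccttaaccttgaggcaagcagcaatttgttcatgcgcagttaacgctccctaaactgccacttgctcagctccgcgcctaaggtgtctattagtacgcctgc
GEMIN5: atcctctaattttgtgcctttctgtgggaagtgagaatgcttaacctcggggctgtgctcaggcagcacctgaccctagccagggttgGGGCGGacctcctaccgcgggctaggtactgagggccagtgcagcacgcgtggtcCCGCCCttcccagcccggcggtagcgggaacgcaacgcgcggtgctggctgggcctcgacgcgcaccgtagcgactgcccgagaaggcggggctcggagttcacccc
GEMIN8: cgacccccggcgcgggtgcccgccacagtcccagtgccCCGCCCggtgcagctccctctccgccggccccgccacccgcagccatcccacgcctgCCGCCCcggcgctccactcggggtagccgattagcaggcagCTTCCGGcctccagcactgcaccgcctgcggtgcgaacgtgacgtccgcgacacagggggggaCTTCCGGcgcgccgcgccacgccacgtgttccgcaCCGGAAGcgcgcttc
COIL: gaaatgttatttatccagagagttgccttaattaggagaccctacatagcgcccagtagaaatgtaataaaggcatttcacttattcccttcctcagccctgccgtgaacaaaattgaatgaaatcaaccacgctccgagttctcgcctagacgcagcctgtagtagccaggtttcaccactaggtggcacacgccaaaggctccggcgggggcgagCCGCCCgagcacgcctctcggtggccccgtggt
Motifs were searched on both strands of the 250 bases before each RefSeq start: CCAAT (the CCAAT box), GGGCGG (the GC box), CCGGAAG (the ETS motif), GCATGCGC (bound by NRF1) and TATAAA (the TATA box). In the same order, they occurred in 32%, 42.6%, 8.52%, 2.63% and 10.7% of 35116 RefSeq promoters. GEMIN2 held 1 CCAAT box and 2 NRF1 matches, which begin at positions -21 and -19 from the RefSeq start, past the end of the printed stretch, and overlap each other on opposite strands. GEMIN5 held 2 GC boxes and GEMIN8 held 2 GC boxes and 3 ETS motifs, while COIL held 1 GC box, and none of these matches overlapped. No motif of the 5 was thus present in all of GEMIN2, GEMIN5 and GEMIN8, and TATAAA was in none of the 4 windows. Genes not past the threshold held such motifs too: GEMIN4 GC boxes and ETS motifs, WRAP53 GC and CCAAT boxes, and GEMIN7 GC boxes. A match is a string of letters and does not show binding.

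Compared per kilobase of annotated exon, the 10 genes spanned a wide range of levels in wild-type cells. SMN2 and SMN1 had the most RNA, with 34.6 ± 0.991 and 33.8 ± 0.702 CPM per kilobase (SD, n = 3), and did not differ beyond their spread. If shared reads were counted for both copies, the level of each copy alone would be lower, so their place above COIL is uncertain. COIL followed at 22.3 ± 0.382 CPM per kilobase, and then GEMIN5 at 19.6 ± 1.08 and GEMIN4 at 18.2 ± 0.352, whose libraries overlapped. GEMIN2 had 12.4 ± 0.316 and GEMIN7 had 11.4 ± 0.714 CPM per kilobase, close to each other but with no overlap. The lowest levels per kilobase were those of GEMIN6 at 7.33 ± 0.204, WRAP53 at 5.52 ± 0.351 and GEMIN8 at 2.91 ± 0.0999.
Among tested protein-coding genes, these levels per kilobase ran from the percentile 42.4 for GEMIN8 to 94.1 for SMN2 as counted. In EAF1-mutant cells GEMIN5 came after GEMIN4, with 12.4 ± 0.413 against 16.8 ± 0.238 CPM per kilobase, and GEMIN2 came after GEMIN7, with 6.25 ± 0.262 against 10.5 ± 0.146. GEMIN2 then lay beside GEMIN6, at 6.05 ± 0.263 CPM per kilobase, within the spread of both. The order depends on the length used: divided by the length of the Ensembl canonical transcript, a check added after the data were seen, SMN1 and SMN2 had 70.6 and 69.4 CPM per kilobase in wild-type cells, well above the values per kilobase of annotated exon and in the other order. By that length GEMIN2 had 25.4 and WRAP53 19 CPM per kilobase, and GEMIN4 came before COIL with 27.9 against 25.5.

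A ratio of genes within 1 library does not depend on how libraries are scaled. Per kilobase, the level of GEMIN2 was 18.2% ± 0.256 (SD, n = 3) of the sum of SMN1 and SMN2 in wild-type cells and 10.3% ± 0.361 in EAF1-mutant cells. For GEMIN5 the ratio was 28.7% ± 1.2 in wild-type and 20.4% ± 0.731 in EAF1-mutant cells, and for GEMIN8 it was 4.26% ± 0.115 and 3.23% ± 0.13. The EAF1-mutant libraries lay wholly below the wild-type libraries for these 3 ratios, as they did for 16.5% of all other tested genes divided by the same sum, while they lay wholly above for 44.4%. Under TMM scaling the sum itself was lower in EAF1-mutant cells, with a log2 fold change of -0.17, so a gene with no change has a higher ratio there. With library totals alone the log2 fold change of the sum was -0.06 (edgeR adjusted p = 0.202). For GEMIN4, GEMIN6 and GEMIN7 the ratios overlapped, at 26.6% against 27.7%, 10.7% against 9.98% and 16.7% against 17.2%. All of these percentages share the SMN sum as their denominator, with its uncertain counting, and their size depends on the length used. With canonical transcript lengths, also added after the data were seen, the wild-type ratio was 14.6% for GEMIN5, 2.64% for GEMIN8, 9.42% for GEMIN7 and 6.17% for GEMIN6, but 18.1% for GEMIN2, and the same genes overlapped between the groups.

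**Figure D3:**
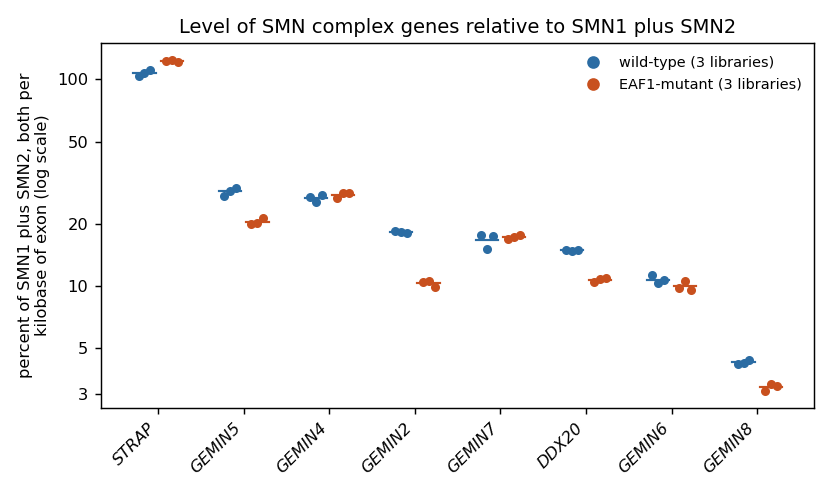
Level of 8 SMN complex genes in each library as a percentage of the sum of SMN1 and SMN2, both per kilobase of annotated exon, on a log axis (points, libraries; short lines, means of 3). GEMIN2, GEMIN5, DDX20 and GEMIN8 take a smaller percentage in all 3 EAF1-mutant libraries and STRAP a larger one, while GEMIN4, GEMIN6 and GEMIN7 overlap between the groups.

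The 10 genes lie on chromosomes 2, 5, 14, 17, 19 and X, and some chromosome arms had lower or higher counts as a whole in the EAF1-mutant line. Arm medians and the medians of the 10 nearest tested genes, 5 on each side, are therefore given beside the genes. GEMIN5 had a log2 fold change of -0.66 on an arm, 5q, whose 1010 tested genes had a median of 0.03, and its neighbors had a median of 0.01. GEMIN2 had -0.99 on 14q, with a median of -0.17 over 907 genes, and its neighbors ranged from -1.05 to 1.98 with a median of -0.41. GEMIN8 had -0.57 on Xp, with a median of -0.05 over 325 genes, and all 10 of its neighbors were below 0, from -1.02 to -0.12, with a median of -0.35.
The log2 fold changes of GEMIN2 and GEMIN8 thus went beyond the medians of their neighborhoods but within the range of single neighbors, and that of GEMIN5 lay below all 10 neighbors, the lowest of which had -0.60. The part that the neighborhood has in these differences was not tested. The 7 other genes lay on arms with medians between 0.02 and 0.24. The outermost GENCODE start of GEMIN6 lies 40 bases from that of SRSF7, a splicing factor gene on the other strand that was picked after its values were seen, while the RefSeq start of GEMIN6 lies farther inside the gene. SRSF7 averaged 321 ± 6.46 CPM (SD, n = 3) in wild-type libraries against 255 ± 4.57 CPM in EAF1-mutant libraries, and its log2 fold change was -0.33, the lowest among the 10 neighbors of GEMIN6. These neighbors ranged up to 0.54 with a median of -0.12, and GEMIN6 had -0.28.

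**Figure D4:**
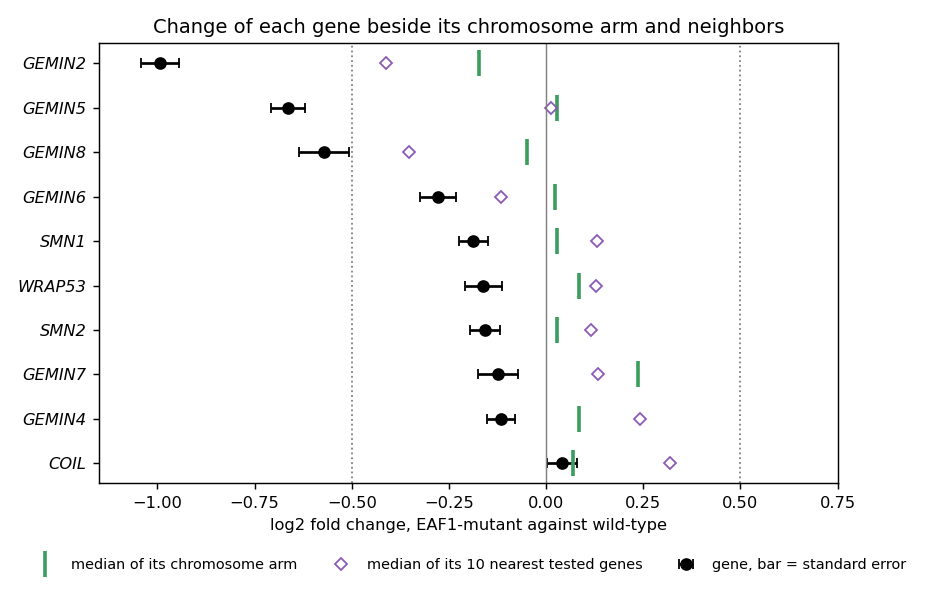
Log2 fold change of each of the 10 genes in EAF1-mutant against wild-type cells (black points; bars, standard error of edgeR), with the median of its chromosome arm (green) and of its 10 nearest tested genes (purple diamonds); dotted lines mark the limit of 0.5 in size. GEMIN2, GEMIN5 and GEMIN8 lie beyond -0.5, and the neighbors of GEMIN2 and GEMIN8 have medians of -0.41 and -0.35.

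Genes that act with these 10, or in 1 list lie beside SMN1 and SMN2, were followed in 8 lists of 44 genes in all. Of these, 43 passed the filter on low counts, 6 were lower past the threshold in edgeR and in DESeq2 and none was higher, next to 9.36% and 11% of all tested genes. At an unadjusted p under 0.05 in edgeR, 30 were lower and 3 higher, against 27.8% and 28.5% of all tested genes. At an adjusted p under 0.05 it was again 30 and 3, but 20 and 8 with library totals alone. Their median log2 fold change was -0.20, or -0.08 with library totals alone, where 6 were lower and 1, TOE1, was higher past the threshold. STRAP, TOE1 and SERF1A are named after their values were seen.
Of the remaining SMN complex proteins, DDX20, the helicase also called GEMIN3, had 88.2, 91.3 and 88.5 CPM in wild-type cells and 57.1, 56.1 and 58 CPM in EAF1-mutant cells. The groups lay far apart, and the log2 fold change was -0.65 (standard error 0.04, edgeR adjusted p = 1.29e-12). The arm of DDX20, 1p, had a median of 0.09 and its neighbors a median of 0.01. STRAP, a WD repeat protein of the complex, had a log2 fold change of 0.02 with overlapping groups, from 163 ± 7.04 to 165 ± 2.97 CPM. Relative to SMN1 plus SMN2 per kilobase, DDX20 went from 14.9% ± 0.0863 to 10.7% ± 0.244, while STRAP went from 108% ± 3.58 to 122.9% ± 1.2 (SD, n = 3). Under TMM scaling the CPM of STRAP overlapped between the groups, while the SMN sum was lower. With library totals alone STRAP itself had a log2 fold change of 0.13 (edgeR adjusted p = 0.00649) and the SMN sum one of -0.06. The part of each in the higher ratio thus depends on the scaling and was not tested. With canonical lengths the wild-type ratio of STRAP was 62.2%.
The Sm proteins are what the complex loads. Of 8 genes in that list, 7 were tested and 2 were lower past the threshold, SNRPE and SNRPB, beside 9.36% lower among all tested genes. The list median was -0.30, and -0.19 with library totals alone. SNRPE went from 144 ± 2.41 CPM in wild-type to 81.9 ± 2.92 CPM in mutant libraries (SD, n = 3 each), with a log2 fold change of -0.82 on an arm (1q) with a median of -0.30. SNRPB went from 260.4 ± 15.5 to 157 ± 1.78 CPM, with a log2 fold change of -0.73 on an arm (20p) with a median of -0.54. SNRPN was listed at 0 counts in 5 libraries and at 5 counts in the other, and was not tested. SNURF, which lies within SNRPN on the same strand, was listed at the same counts. No source used here says how reads that fit both genes were counted, so these counts give no level of SNRPN.
The methylosome modifies Sm proteins before they reach SMN. Of its 5 genes WDR77 alone was lower past the threshold, with 176, 174 and 179.6 CPM in the wild-type and 103, 96.1 and 100.1 CPM in the EAF1-mutant libraries. These groups lay far apart, with a log2 fold change of -0.83 (standard error 0.04, edgeR adjusted p = 1.17e-14), while its arm, 1p, had a median of 0.09 and its neighbors one of -0.31. All 5 genes of this list were lower at an adjusted p under 0.05 in edgeR, beside 25.6% of all tested genes. The list median was -0.37, and -0.25 with library totals alone.
None of the 8 factors that export, cap or import snRNAs passed the threshold in edgeR or DESeq2, with 5 lower and 1 higher at an unadjusted p under 0.05 in edgeR (27.8% and 28.5% of all tested genes). Their median was -0.11, and 0.00 with library totals alone. The most abundant per kilobase was KPNB1, importin beta, which went from 657 ± 16.2 CPM (SD, n = 3) in wild-type to 539.9 ± 6.44 CPM in mutant libraries, a log2 fold change of -0.28. Of 7 other Cajal body proteins none passed in edgeR or DESeq2 either, with 4 lower and 1 higher at an unadjusted p under 0.05 in edgeR, where all tested genes gave 27.8% and 28.5%. Their median was -0.10, and 0.02 with library totals alone. Among them NOLC1, the coilin partner Nopp140, had a log2 fold change of -0.12 with overlapping groups, and TOE1, an exonuclease that trims snRNA ends, had 0.45. With library totals alone TOE1 had 0.56 and was past the threshold. Its 10 neighbors were all above 0, from 0.23 to 0.83, with a median of 0.47.
Of 6 proteins of H/ACA RNPs, the class to which telomerase RNA and many small Cajal body RNAs belong, SHQ1, an assembly chaperone, was lower past the threshold, beside 9.36% of all tested genes. It went from 63.7 ± 1.56 to 35.3 ± 0.31 CPM (SD, n = 3), a log2 fold change of -0.85 on an arm (3p) with a median of -0.78. Of 3 proteins of box C/D RNPs, NOP56 was lower past the threshold, from 399.9 ± 7.16 to 249 ± 2.21 CPM, a log2 fold change of -0.69 on 20p with its median of -0.54. The list medians were -0.27 for H/ACA and -0.31 for box C/D proteins, and -0.15 and -0.20 with library totals alone. Of the 6 related genes past the threshold, SNRPE, SNRPB, SHQ1 and NOP56 thus sat on arms that were themselves lower in the EAF1-mutant line. In the same order, their 10 nearest tested genes had medians of -0.13, -0.56, -0.51 and -0.64. The part of the arm or the neighborhood in these differences was not tested.
None of the 5 genes in the segment duplicated around SMN1 and SMN2 passed the threshold in edgeR or DESeq2, with 2 lower and 1 higher at an unadjusted p under 0.05 in edgeR, beside the same 27.8% and 28.5%. Their median was 0.00 with a range from -0.26 to 0.18, and 0.11 with library totals alone. The most abundant per kilobase was GTF2H2, which went from 181 ± 3.97 CPM (SD, n = 3) in wild-type to 153 ± 5.49 CPM in mutant libraries, a log2 fold change of -0.24, next to -0.17 for the SMN sum. SERF1A, by contrast, had 29.4 ± 0.951 and 29.5 ± 0.648 CPM.

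**Figure D5:**
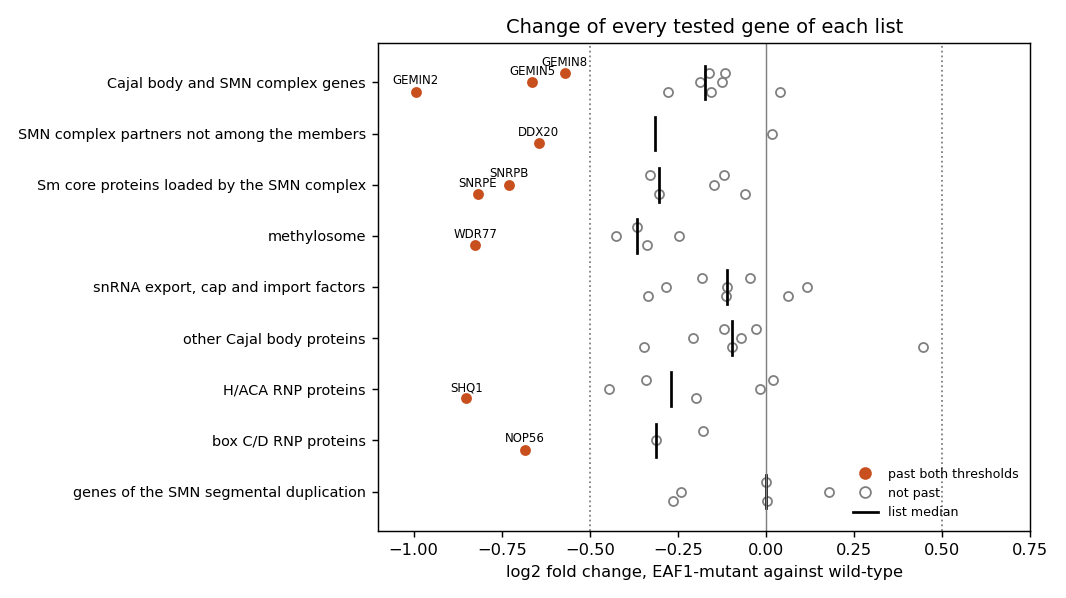
Log2 fold change in EAF1-mutant against wild-type cells of every tested gene of the 10 genes and of 8 lists of genes that act or lie with them (orange, past both thresholds; grey, not past; black line, list median; dotted lines, 0.5 in size). The 9 named genes past the thresholds all lie below -0.5, and no gene lies above 0.5.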

How the data were processed

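Paired-end reads of 3 wild-type and 3 EAF1-mutant libraries came from ribosomal RNA-depleted total RNA and a stranded kit. The authors used Trim Galore for trimming, HISAT2 for mapping to GRCh38 and Rsubread for counting per Ensembl gene, and the table they deposited holds these counts without normalization. No source used here gives the strand and multi-mapping settings. Symbols, positions and exon lengths came from GENCODE v44 (57754 genes matched). From these counts, edgeR 4.0.16 gave TMM factors, the filterByExpr filter and quasi-likelihood p-values, adjusted by Benjamini-Hochberg over all tested genes. The biological coefficient of variation was 4.11%. DESeq2, which the study used in an earlier version, was run in version 1.42.0 as an alternative. Other alternatives were other scalings, filters and limits, a replicate block and each library left out. The test was checked on simulated counts. Named genes were the 10 genes, EAF1, genes overlapping them and, per list, those past the threshold or else the most abundant per kilobase. Some results under this rule are not reported here. The genes and lists were chosen with earlier results of these data known. The deposited ELL ChIP-seq table lists none of the 10 genes and was not used here.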

Additional observations from a re-analysis of the deposited data

How the results depend on the processing

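GEMIN2 and GEMIN5 were past the threshold under each alternative run, and GEMIN8 under each except library totals alone. The number of genes past it ran from 4457 with a filter of at least 1 CPM in 3 libraries to 6192 with no filter on low counts, against 5695. Taking an adjusted p under 0.05 with no fold limit gave 14420 genes in all, 8 of the 10 Cajal body and SMN complex genes in place of 3, and 33 of the related genes in place of 6. These higher counts follow from the looser limits. Of 60 log2 fold changes of the 10 genes under other tools, scalings and filters (the replicate block included), 59 kept their direction and side of the threshold and 1, that of GEMIN8, did not, and all 60 with 1 library left out kept both. With 1 library left out, the counts of genes were 5315 to 5588, 3 of the 10 and 6 related genes throughout, the SMN sum had log2 fold changes of -0.20 to -0.16, and the SMN1 share differed by -0.69 to -0.28 percentage points. Same-numbered libraries of the groups did not deviate together (correlations across genes of -0.00537, -0.0166 and 0.00974). These values cannot tell whether such libraries were prepared together. With the replicate number as a replicate block, 5686 genes, 3 of the 10 and 6 related genes were past the threshold, and the SMN sum had a log2 fold change of -0.17. The smallest counts of a tested gene among the 10 were the 442 to 635 of GEMIN8, enough to resolve its difference here. The single mutant clone and the unknown counting of shared reads are limits that these libraries cannot measure.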
